A study of Mus musculus with 5 samples.

Results

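The binding of NEUROD2 was mapped by chromatin immunoprecipitation and sequencing (ChIP-Seq) across Auts2, Galnt17 and Caln1, 3 long genes that lie next to each other on mouse chromosome 5. The neighbourhood comprised every peak whose midpoint fell inside the span of the longest transcript of a member gene, or whose closest protein-coding transcription start site (TSS) was that of a member. The members were selected on the positions of called peaks, so the number of peaks in the neighbourhood describes the selection and no test was made of it. This gave 328 of the 94616 peaks called on chromosomes 1 to 19, X and Y. Overlapping peaks merged into 169 of 53833 regions, and 114 of the 32261 regions with peaks of at least 2 antibodies, called shared regions here, belonged to the neighbourhood.

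The samples were cerebral cortex of BALB/c mouse embryos at E14.5, pooled over embryos, with no treatment or genetic change named. NEUROD2 was precipitated with 3 antibodies, each used for 1 library. The antibody called ab1 came from mouse, whereas ab2 and ab3 came from rabbit. The 2 libraries precipitated with GFP antibodies, 1 of each host species, served only as controls of peak calling, and ab2 and ab3 share the rabbit control. The 3 NEUROD2 libraries are therefore 3 measurements of 1 condition with different reagents, and no group comparison or p-value is available. Errors are given as the SD over the 3 antibodies or as a 95% Wilson interval, and such intervals cover counting error only. The antibodies yielded 51841, 35310 and 7470 peaks. At the TSS of Nhlh2, the positive control of the study, ab1 and ab2 had a peak with scores of 158 and 153 and ab3 had none, and no antibody had a peak within 1 kb of the TSS of the interneuron genes Gad1, Dlx2 and Npy. The study also tested Gsx2 and Calb2 as non-targets by ChIP and quantitative PCR and reported a slight enrichment at Gsx2. Gsx2 and Calb2 were not checked here. The deposited score of a peak is 10 times the −log10 p-value of the peak caller, on which 661 peaks of ab1 were tied at 3100 and 69 scored higher, and read depth cannot be read from peak lists.

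NEUROD2 is a basic helix-loop-helix factor of differentiating excitatory neurons that pairs with E proteins and binds the E-box, CANNTG. In embryonic cortex it is switched on as newborn neurons leave the cell cycle and migrate. AUTS2 works in the nucleus with a variant Polycomb repressive complex 1 (PRC1) and acts in the cytoplasm on the cytoskeleton during neuronal migration and neurite growth, and AUTS2 is disrupted in human neurodevelopmental disorders. GALNT17, also called WBSCR17, belongs to the GalNAc-transferases, the enzymes that attach the first sugar of mucin-type O-glycans. CALN1, or calneuron 1, is an EF-hand calcium sensor of neurons.

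The sequence at the centre of the strongest region of each gene is shown first. The centre is the midpoint of merged peaks, so the bases that NEUROD2 contacts are not known from it. Each sequence is the 200 bp around the region midpoint on the forward strand of mm10 (GRCm38, a C57BL/6J reference, so BALB/c variants are not seen). Capitals mark the extended E-box, which has the core CAGCTG, the core CAGATG (written CATCTG where it lies on the other strand) or the core CATATG, with a G or T after the core or an A or C before it. A core without such a neighbouring base stays in lower case. The strongest region of a gene was that with the highest mean log10 score over ab1, ab2 and ab3, so only regions with all 3 antibodies were ordered. The window of Auts2, from intron 4, held no extended E-box, and those of Galnt17 (intron 3) and Caln1 (intron 5) held 3 each.
Auts2, chr5:131795164-131795363: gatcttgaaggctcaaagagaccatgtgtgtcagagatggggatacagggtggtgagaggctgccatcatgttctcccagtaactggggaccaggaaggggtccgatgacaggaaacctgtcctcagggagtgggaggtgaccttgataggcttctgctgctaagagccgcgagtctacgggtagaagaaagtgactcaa
Galnt17, chr5:131089981-131090180: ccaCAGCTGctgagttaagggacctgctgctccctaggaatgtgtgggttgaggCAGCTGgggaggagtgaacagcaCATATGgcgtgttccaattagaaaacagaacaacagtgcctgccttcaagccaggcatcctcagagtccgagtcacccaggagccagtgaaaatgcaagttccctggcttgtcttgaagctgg
Caln1, chr5:130686031-130686230: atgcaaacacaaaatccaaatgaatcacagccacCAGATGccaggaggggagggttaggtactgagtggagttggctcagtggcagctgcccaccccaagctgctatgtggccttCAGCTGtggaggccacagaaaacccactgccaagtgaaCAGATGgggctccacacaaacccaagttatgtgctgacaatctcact

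The extended E-box closest to the midpoint of the strongest Auts2 region lay 484 bp away, in a region 3051 bp wide that held 5 of them. This site is shown with 12 bases on each side.
Auts2, chr5:131794765-131794794: tgcctctgcctcCATCTGctgctgggctaa

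The regions at positions 2, 3 and 5 of this order for Auts2, and at positions 2 to 5 for Galnt17, carried an extended E-box at the centre. Their sites are shown in that order, again with 12 bases on each side. In all 8 sites the core was CAGATG or its reverse complement CATCTG, and it lay between 8 and 93 bp from the midpoint.
Auts2, chr5:132161628-132161657: ttgttcagacaaCATCTGaaagcttgtctt
Auts2, chr5:133156459-133156488: ttgtgacatcagCATCTGgtattagcagct
Auts2, chr5:132170252-132170281: aagagccggtgcCATCTGctaatgtgagca
Auts2, chr5:132170305-132170334: ttgacgacagggCAGATGgcacgctcctca
Galnt17, chr5:131223220-131223249: gacttggtcggaCATCTGtaactgagtctc
Galnt17, chr5:131167624-131167653: cttgctttggagCAGATGgatggagaacat
Galnt17, chr5:131083159-131083188: cttagaccagagCAGATGgtcaagccactg
Galnt17, chr5:131170324-131170353: ctgtgacccacaCAGATGggaaatcagaag

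Besides the strongest regions of Galnt17 and Caln1, 4 further shared regions held 3 extended E-boxes in the central 200 bp. They are shown to complete the 6 regions of this kind, 5.26% of the shared regions against 5.09% over the genome. The region 35.7 kb upstream of the Caln1 TSS had scores of only 135 for ab1 and 51.9 for ab2. The others lay in Caln1 intron 5, between Galnt17 and Auts2, and 231 kb upstream of the Auts2 TSS. None of these 4 had an ab3 peak.
Caln1, chr5:130333632-130333831: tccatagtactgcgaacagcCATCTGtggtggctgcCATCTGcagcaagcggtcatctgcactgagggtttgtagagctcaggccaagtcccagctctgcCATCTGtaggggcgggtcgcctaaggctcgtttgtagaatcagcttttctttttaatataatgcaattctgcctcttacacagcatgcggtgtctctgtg
Caln1, chr5:130777413-130777612: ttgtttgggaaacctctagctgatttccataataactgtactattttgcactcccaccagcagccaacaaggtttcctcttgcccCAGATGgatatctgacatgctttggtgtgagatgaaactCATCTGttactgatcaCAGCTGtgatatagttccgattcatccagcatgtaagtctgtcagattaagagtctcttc
Galnt17, chr5:131435666-131435865: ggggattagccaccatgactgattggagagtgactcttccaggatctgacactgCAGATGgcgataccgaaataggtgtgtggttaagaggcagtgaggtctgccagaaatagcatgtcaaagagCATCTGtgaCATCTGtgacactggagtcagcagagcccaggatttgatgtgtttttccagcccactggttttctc
Auts2, chr5:132774233-132774432: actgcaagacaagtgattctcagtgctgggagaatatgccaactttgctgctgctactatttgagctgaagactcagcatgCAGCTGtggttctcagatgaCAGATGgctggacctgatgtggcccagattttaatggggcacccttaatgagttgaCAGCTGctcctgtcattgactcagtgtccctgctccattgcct

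The 3 genes received unequal numbers of regions. Auts2 (ENSMUSG00000029673.17, chr5:131437333-132543344, minus strand, 1106 kb, 19 exons) had 89 shared regions, 72 inside its span and 17 in the intergenic stretch upstream of its TSS. Galnt17 (ENSMUSG00000034040.16, chr5:130872082-131308497, minus strand, 436 kb, 11 exons) had 19, of which 17 lay inside the span. Caln1 (ENSMUSG00000060371.12, chr5:130369455-130840174, plus strand, 471 kb, 7 exons) had 6, of which 5 lay inside the span. The peaks of each antibody alone kept this order. ab1 had 138 peaks at Auts2, 26 at Galnt17 and 7 at Caln1. ab2 had 93, 21 and 6, and ab3 had 31, 5 and 1. The means were 87.3 ± 53.7, 17.3 ± 11.0 and 4.67 ± 3.21 peaks (SD, n = 3 antibodies), and the peak totals of the libraries fell in the same order. The neighbourhood took 0.330% of the ab1 peaks, 0.340% of the ab2 peaks and 0.495% of the ab3 peaks.

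**Figure D1:**
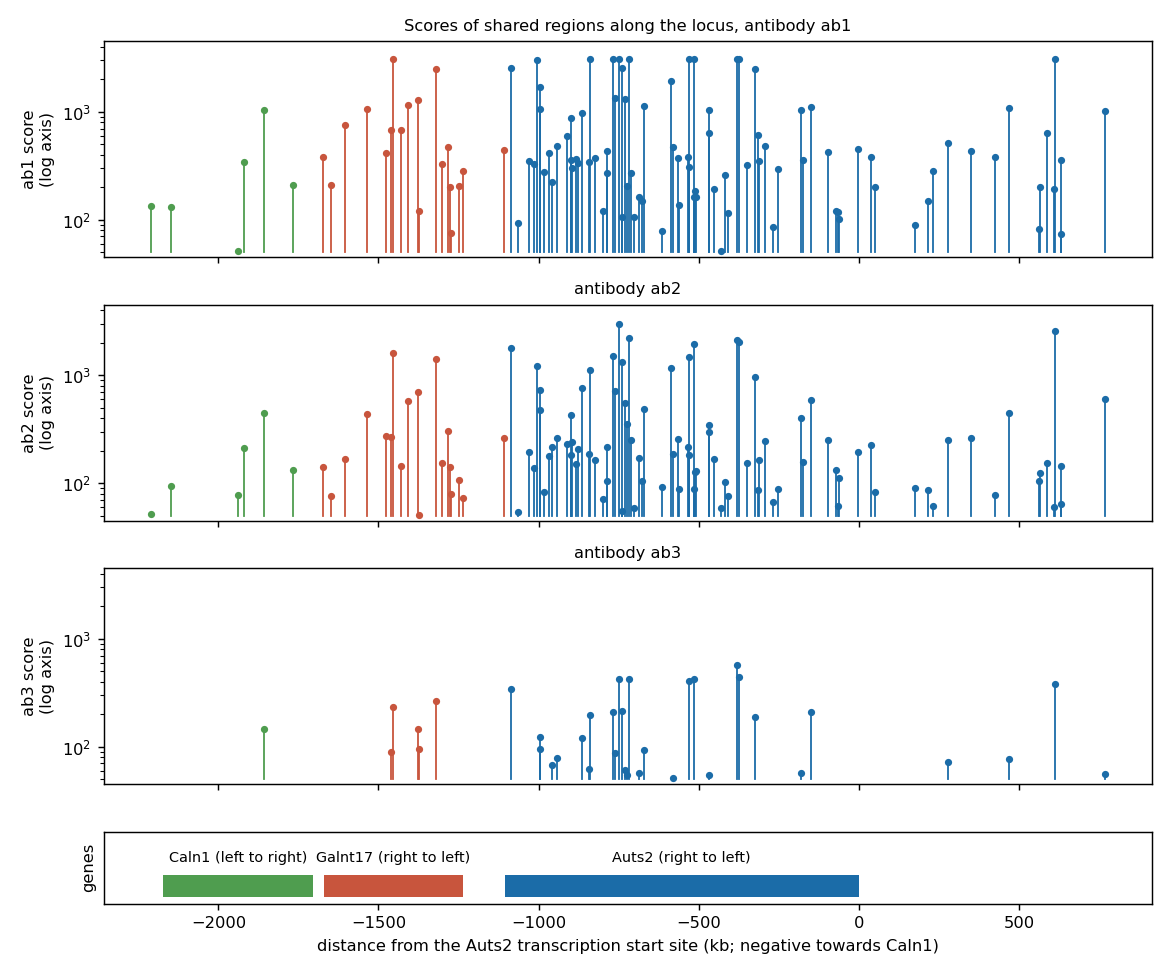
Score of each shared region (log axis) for ab1, ab2 and ab3 against the distance of its midpoint from the Auts2 TSS in kb, coloured by the gene it was assigned to, with the spans of the 3 genes below. The 9 Auts2 regions at the ab1 score of 3100 stand in introns 2, 4 and 5 and upstream of the gene, and no Caln1 region exceeds 1030.

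Per length of gene, Auts2 carried 6.51 shared regions per 100 kb, Galnt17 3.90 and Caln1 1.06. Over the 2434 protein-coding genes with a span of at least 100 kb the median was 1.20, with quartiles of 0.424 and 2.57, and 508 of them had no shared region in the span. Auts2 ranked 85th, Galnt17 315th and Caln1 1287th in this order. Auts2 thus stood in the upper part of the distribution by density, Galnt17 above the upper quartile and Caln1 below the median. Leaving out ab1 or ab2 lowered the densities to 2.35, 1.15 and 0.212 per 100 kb, the same as for regions with all 3 antibodies. Ranked by the density of regions with all 3 antibodies the genes came 66th, 262nd and 1004th, so that Caln1, with 1 such region, came on the other side of the middle of the order. By number of regions inside the span Auts2 came 2nd of all coding genes, behind only Gm20388, a locus annotated over 4435 kb with 195 regions, and just ahead of Fgfr2, whose longest annotated transcript covers 2961 kb, with 71. Galnt17 came 92nd and Caln1 705th. The genes were chosen with these lists known, so the ranks are descriptions.

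**Figure D2:**
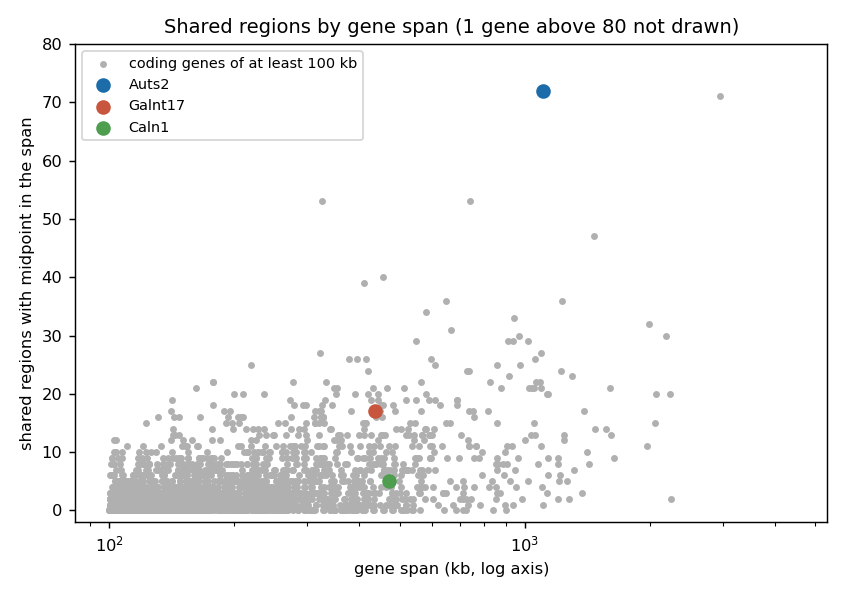
Number of shared regions with their midpoint in the gene span against span length in kb (log axis), each grey point a protein-coding gene of at least 100 kb, with the 3 genes coloured. Gm20388, with 195 regions, lies above the axis and is not drawn. Auts2 sits at 72 regions and 1106 kb, above the other genes, Galnt17 at 17 and Caln1 at 5.

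Regions were closely spaced over most of the 2978 kb from the first to the last peak. Neighbouring shared midpoints were a median of 15.4 kb apart, against 27.9 kb over the genome. The longest stretch without a shared region was 209 kb and lay within Caln1, in introns 1 to 3. The other two longest gaps, of 136 and 129 kb, lay upstream of Auts2 and between the Galnt17 TSS and the 3′ end of Auts2. The densest 100 kb, chr5:131743288-131843287, held 13 shared regions and spanned the end of Auts2 intron 4 and the adjoining start of intron 5. Of 32261 such windows placed at shared regions across the genome, 372 (1.15%) held as many or more. The densest window was picked from a locus chosen on its peaks, and windows overlap, so this share is a description and not a probability.

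Within Auts2 the regions were most numerous in introns 4 and 5, which lie mainly between the midpoint of the gene and its 3′ end. Together these introns held 43 of the 72 regions inside the span, or 59.7%, and made up 44.9% of its length. Intron 4 (260 kb) held 23, intron 5 (237 kb) 20, and intron 2 (209 kb) 13, whereas intron 1, the longest at 282 kb, held 9. Per 100 kb these were 8.84, 8.44, 6.23 and 3.19 regions. Intron 4 also held the most regions with all 3 antibodies, 12 of its 23 (52.2%, interval 33.0 to 70.8), against 7 of 20 in intron 5, 4 of 13 in intron 2 and 2 of 9 in intron 1. This share was 31.6% over the shared regions of the neighbourhood and 22.2% over those of the genome. Intron 4 was singled out after the values were seen. The short introns from 7 to 18, which lie between the 3′ exons, held a single shared region. That region, chr5:131457519-131458942 in intron 13, had an ab1 score of 2539, an ab2 score of 1794 and an ab3 score of 346, and was thus among the stronger ones of the locus.

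**Figure D3:**
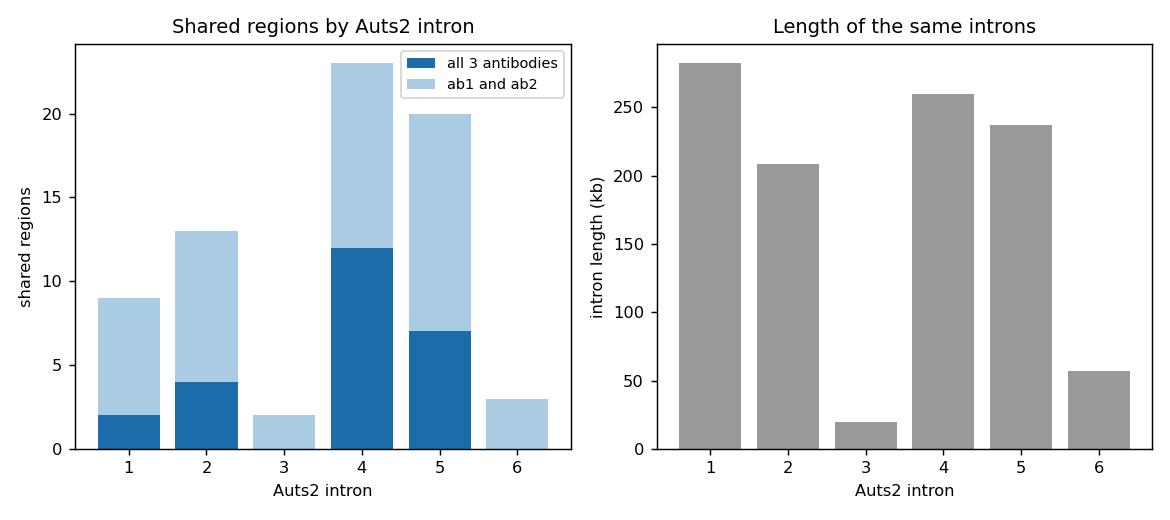
Left, number of shared regions in Auts2 introns 1 to 6, split into regions with all 3 antibodies and regions with ab1 and ab2. Right, length of the same introns in kb. Introns 4 and 5 hold 23 and 20 regions and are shorter than intron 1, which holds 9.

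The strongest Auts2 region, chr5:131793739-131796789 in intron 4, scored 3100 for ab1, 3012 for ab2 and 425 for ab3. The second, chr5:132160898-132162567 in intron 2, scored 3100, 2135 and 575, and its ab3 score was the highest of that antibody in the neighbourhood. The third, chr5:133155680-133157212, scored 3100, 2601 and 381 and lay outside the gene, 613 kb upstream of the TSS. The fourth, chr5:131823961-131826083 in intron 4, scored 3100, 2202 and 428, and no extended E-box was found anywhere in its 2123 bp. The fifth, chr5:132169489-132171230 in intron 2, scored 3100, 2019 and 441 and lay less than 10 kb from the second. All 5 were tied at the ab1 score of 3100, so their order rests on ab2 and ab3.

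An ab1 score of 3100 or more was reached by 10 of the 114 shared regions, 8.77% (interval 4.83 to 15.4), against 2.25% of all shared regions of the genome. Of these, 9 belonged to Auts2 and 1 to Galnt17, and 5 of the 9 were in Auts2 intron 4. All 10 also had ab2 and ab3 peaks. The median scores of shared regions in the neighbourhood were 368 for ab1, 185 for ab2 and 122 for ab3, each above the genome medians of 278, 140 and 90.5. The excess was small beside the range, which ran from 51.3 to 3100 for ab1 and from 51.2 to 3012 for ab2. The ab1 scores of Auts2 regions ran from 51.6 to 3100 and those of Galnt17 regions from 74.6 to 3100, so the genes overlapped. Their medians were 364 and 443 for ab1 and 188 and 167 for ab2, and the 2 antibodies ordered the genes differently.

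The 17 Auts2 regions outside the gene lay in the gene desert between the Auts2 TSS and Castor2, the next coding gene, whose TSS is 1556 kb away. They stood between 36.6 and 768 kb upstream of the Auts2 TSS. Their median scores were 359 for ab1 and 124 for ab2, and 4 of the 17 had an ab3 peak. An ab1 score of at least 1000 was reached by 3, the region 613 kb upstream given above, one 468 kb upstream with scores of 1095, 449 and 76.8, and the most distant. The most distant member region, 768 kb upstream, scored 1016 for ab1, 598 for ab2 and 55.5 for ab3. The next shared region beyond it was 823 kb from the Auts2 TSS, scored 303 and 169 without ab3, and fell to Castor2. On the other side the outermost member was the region 35.7 kb upstream of Caln1 shown above, and the next, 76.3 kb upstream, scored 87.9 for ab1 and 118 for ab2 and fell to Tyw1. Castor2 and Tyw1 were the closest coding TSS of 30 and 2 shared regions.

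In Galnt17, intron 1 (155 kb) held 8 of the 17 regions inside the span, and introns 2 to 6 and 9 held 1 or 2 each. The strongest region, chr5:131089670-131090491 in intron 3, scored 3100 for ab1, 1604 for ab2 and 234 for ab3, in only 822 bp. The second of those with all 3 antibodies, chr5:131222393-131224116 in intron 1, scored 2481, 1404 and 263, and was 85.2 kb from the TSS. The third, chr5:131167176-131168068, also in intron 1, scored 1298, 704 and 146. Next by ab1 score were 2 regions without ab3, chr5:131134575-131135513 in intron 2 with 1153 and 583 and chr5:131006318-131008421 in intron 5 with 1054 and 440. The region chr5:131082736-131083683 in intron 4 scored 685, 270 and 90.0, and chr5:131169968-131170694 in intron 1 scored 120, 51.2 and 95.9. The latter was the only one of the 36 regions with all 3 antibodies in which the ab3 score exceeded the ab2 score. These 5 were all the Galnt17 regions with 3 antibodies, and both regions outside the gene lacked ab3.

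Caln1 had few regions and only 1 with all 3 antibodies, chr5:130685752-130686510 in intron 5, with scores of 1030 for ab1, 444 for ab2 and 147 for ab3. Its widest region, chr5:130622851-130624440 in intron 4, scored 342 and 213. The other 4 scored between 51.3 and 208 for ab1 and between 51.9 and 132 for ab2. The region closest to the Caln1 TSS was 24.7 kb downstream, in intron 1, with scores of 131 and 94.4. No antibody had a peak nearer to the start. The RefSeq promoter of Caln1, 250 bases before to 50 after the annotated start, nevertheless held 2 extended E-boxes, and at least 1 was found in 26.3% of the 32851 RefSeq promoters of GRCm38.p6. The RefSeq promoter of Galnt17, which overlapped a shared region, held 1. The E-boxes of Caln1 are shown as the part of its promoter that would match the motif of the bound regions, 70 and 54 bases before the RefSeq start and on the forward strand.
Caln1 promoter, chr5:130369384-130369413: cctcCATCTGcccggtaggtCAGCTGggtt

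Regions at the starts of the longest transcripts of Auts2 and Galnt17 were broad and without ab3. Against the neighbourhood medians of 368 for ab1 and 185 for ab2, the Auts2 region scored higher and the Galnt17 region lower. The region over the Auts2 TSS, chr5:132540500-132544155, was the widest of the neighbourhood at 3656 bp, covered the start of the longest transcript and 6 further annotated starts, and scored 456 for ab1 and 194 for ab2. The region at the Galnt17 start, chr5:131306075-131308350, was 2276 bp wide, covered 4 of the 5 annotated Galnt17 starts but ended 147 bp short of that of the longest transcript, and scored 283 and 73.6. Both midpoints lay in the first exon, which is untranslated at that position. At a group of 3 internal Auts2 starts, near the 3′ end of intron 5, the region chr5:131537009-131539266 scored 3052 for ab1 and 1217 for ab2 and had no ab3 peak, and its centre had the highest GC content of the neighbourhood, 71.0%. A further internal start in intron 4 fell in chr5:132027877-132028691 (163 and 88.1, no ab3), next to a stronger region, chr5:132028810-132030511, with scores of 3100, 1944 and 422. In all, 15 of the 30 annotated starts of the 3 genes lay inside a shared region, 7 of them in the region at the main Auts2 start.

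Of the 4 shared regions with their midpoint within 1 kb of an annotated start of these genes, 0 had an ab3 peak and 0 had an extended E-box in the central 200 bp, although each held at least 1 elsewhere in the region. Over the genome 10.5% of 5454 shared regions within 1 kb of a start of a coding transcript had all 3 antibodies, against 24.6% of the 26807 others, and 26.9% against 66.3% had the E-box. With 4 regions the upper limit of the interval is 49.0% for either share. Among strong regions the lack of ab3 was uncommon. Of 30 shared regions with an ab1 score of at least 1000, 25 had ab3 (83.3%, interval 66.4 to 92.7), compared with 84.2% over the genome. Away from the starts of the 3 genes the highest-scoring exception was chr5:131955030-131957143 in Auts2 intron 4. Its midpoint was 1095 bp from the annotated start of the antisense gene Gm42439. It scored 1933 and 1177 without ab3 and had the lowest GC content at its centre, 28.5%.

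Inside the 3 spans, 92 of 94 shared regions had their midpoint in an intron, 97.9% (interval 92.6 to 99.4), and the other 2 were the regions at the Auts2 and Galnt17 starts. Introns make up 99.1% of the bases of these spans. Over the genome 83.1% of 17499 shared regions inside coding genes were intronic. No shared region had its midpoint in a coding exon. The median distance to the closest coding TSS was 349 kb, against 52.6 kb over the genome, and 105 of the 114 regions were over 50 kb away, against 51.2% of all shared regions. These distances use 1 start per gene. To the closest start of any coding transcript the medians were 93.8 kb here and 26.0 kb over the genome, and to that of any gene type 30.2 and 17.5 kb. Other annotated genes inside the spans number 33, of which 1 codes for protein. The TSSs of 3 of them, all noncoding, were within 1 kb of a shared region. Gm43166 inside Galnt17 was at a region scoring 1153 for ab1 and 583 for ab2, Gm43483 inside Auts2 at one scoring 870.5 and 432, and Gm42442 inside Auts2 at one scoring 340, 188 and 61.6 for ab3.

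Which gene a region is given to depended strongly on the rule, as the 3 genes show. Of the 72 shared regions inside Auts2, 37 were closer to the TSS of Galnt17 than to that of Auts2, when each gene has only the start of its longest transcript, since the 3′ end of Auts2 faces the Galnt17 start. With the starts of all coding transcripts, the closest start was one of Auts2 for all 72 and one of Caln1 for all 5 regions inside Caln1. The 37 include the strongest region of Auts2 and most of its introns 4 and 5. By the closest coding TSS alone, again with 1 start per gene, Galnt17 was given 56 shared regions and Auts2 52, the 2nd and 3rd highest numbers of any coding gene after Zfp608 with 67. For Galnt17, only 17 of these lay within the gene. By this rule the 5 regions inside Caln1 were all closest to the TSS of A330070K13Rik, a coding gene located within Caln1, which leaves Caln1 with 1 region. At least 1 region by closest TSS was found for 43.8% of 21938 protein-coding genes, so its presence at each of the 3 members is not particular to them.

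At the centre, in a window of 200 bp, 67 of the 114 shared regions contained the extended E-box, 58.8% (interval 49.6 to 67.4), against 59.6% of all shared regions of the genome. Windows of the same length starting 1000 bp beyond the ends of the same regions held it in 20.2% on the left and 23.7% on the right, against 22.3% on each side over the genome. The shares of the neighbourhood and the genome thus differed by less than the counting error, while centre and flanks did not overlap in their intervals. The number of extended E-boxes per 50 bp bin peaked at 0.263 per region just beside the midpoint, and 0.269 over the genome. Counted over whole regions, 107 of 114 held at least 1, or 93.9%, against 90.3% over the genome.

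**Figure D4:**
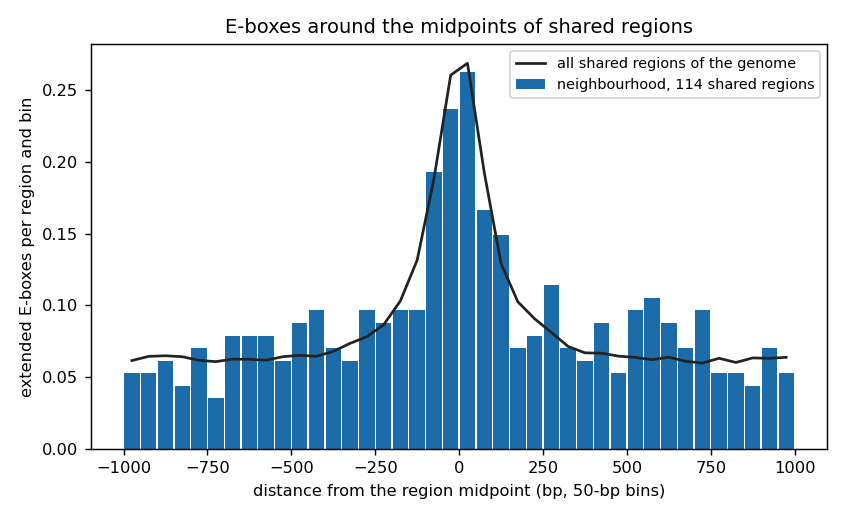
Extended E-boxes per region in 50-bp bins of distance from the region midpoint, as bars for the 114 shared regions of the neighbourhood and as a line for all shared regions of the genome. Both peak at the midpoint, at 0.263 and 0.269 per region and bin.

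The share of regions with a central E-box varied by gene and by intron. In Auts2 48 of 89 regions had a central E-box, 53.9% (43.6 to 63.9), in Galnt17 14 of 19 and in Caln1 5 of 6. Intervals of these shares overlap. The spread between introns of Auts2 was wider. In intron 2, 11 of 13 regions had the motif (84.6%, interval 57.8 to 95.7), and in intron 4 only 8 of 23 (34.8%, 18.8 to 55.1). These introns were picked out after their values were seen. Intron 4 also held many of the broad regions, and in regions of at least 2000 bp, of which the neighbourhood had 12, the midpoint window held the motif in 1, against 29.4% of 1643 such regions over the genome. Widths move with the result, and their part in it was not tested. Regions with a central E-box, a measure that depends on the midpoint of the merged region, did not have higher median scores. Their medians were 335 for ab1 and 165 for ab2, against 420 and 213 in those without, and 19 of 67 (28.4%) against 17 of 47 (36.2%) had all 3 antibodies. Over the genome the ab1 medians were 273 with and 283 without the E-box, the ab2 medians 139 and 142, and the shares with all 3 antibodies 23.6% and 20.1%, in the opposite order. At the midpoints of each antibody's own peaks in the neighbourhood, 58.5% of ab1 peaks, 58.3% of ab2 peaks and 75.7% of ab3 peaks held the E-box. Counted anywhere in the region, it was in 94.4% of the 36 regions with all 3 antibodies. The share was 93.6% of the 78 regions with 2 antibodies and 78.2% of the 55 with 1. Over the genome these shares were 96.1%, 88.6% and 78.5%. Regions with more antibodies were more often broad, and the part of width was not tested.

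By core, CAGATG (counted with CATCTG) was the most frequent at the centre, in 39.5% of shared regions against 15.4% of flanking windows. CAGCTG was in 28.9% against 9.21%, and CATATG in 13.2% against 7.46%, here with any neighbouring base. The genome values at the centre were 43.1%, 28.1% and 11.7%. CACGTG, which is not part of the extended E-box, was at the centre of 11 regions, 9.65%, against 1.75% of flanks and 3.80% of centres over the genome. It was singled out after the values were seen. The GC content of the central windows had a median of 49.3%, against 51.0% over the genome, and a median of 15.6% of a region's bases were soft-masked as repeats in the reference, against 10.9%.

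Every shared region carried both ab1 and ab2, and 36 also ab3. The share with all 3 antibodies was 31.6% (interval 23.8 to 40.6) against 22.2% over the genome. It was 30 of 89 at Auts2, 5 of 19 at Galnt17 and 1 of 6 at Caln1. Of the 169 regions with any peak 67.5% were shared, against 59.9% over the genome. The 55 unshared regions were nearly all weak ab1 peaks. There were 52 of ab1, with a median score of 85.6 and a highest of 409, and 3 of ab2, scoring between 50.1 and 71.6, and none of ab3 alone. A central E-box was present in 33 of these 55, 60.0%, a share close to that of shared regions, and all 33 were ab1 regions. Anywhere in the region it was found in 43 of the 55, 78.2%, against 93.9% of shared regions. Some shared regions were at least 2000 bp wide and 0 of the 55 were, and the part of width was not tested.

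The antibodies ranked the regions alike. Across the 114 regions with ab1 and ab2 Spearman's rho was 0.89, and across the 36 with ab3 it was 0.84 with ab1 and 0.86 with ab2. Over the genome the values were 0.85, 0.74 and 0.77. These are correlations across sites of the same libraries, not across replicates, and ab2 and ab3 share a control library. The ab1 score was higher than that of ab2 in 104 of the 114, with a median ratio of ab2 to ab1 of 0.538, close to the 0.544 over the genome. The part of library depth and of the control library in this difference was not tested.

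**Figure D5:**
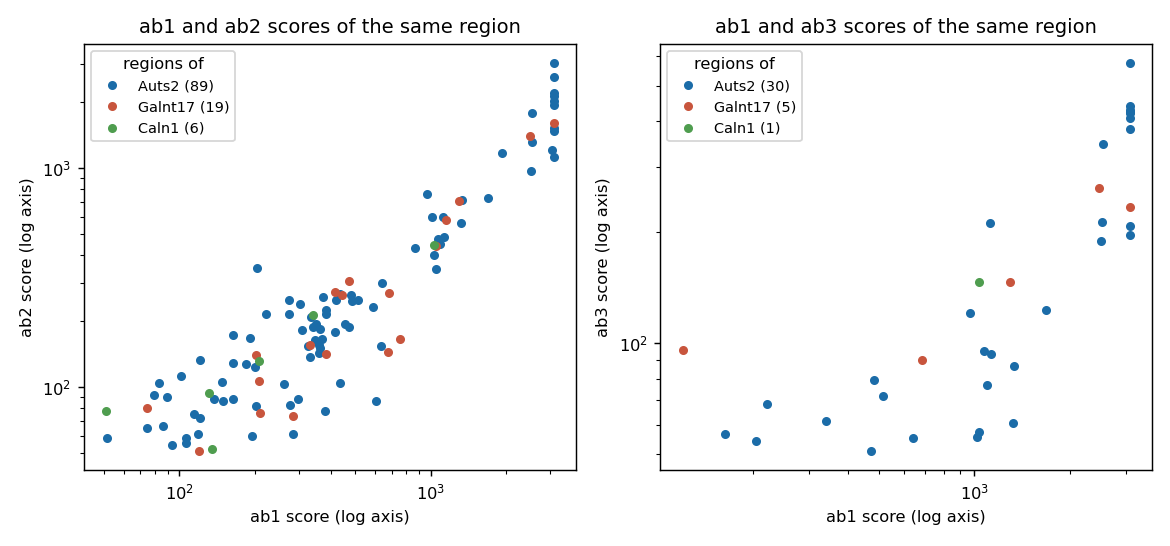
Scores of the same region for ab1 and ab2 (left, 114 regions) and for ab1 and ab3 (right, 36 regions), both axes logarithmic, each point a region coloured by gene. The points rise together in both panels, and the 10 regions at the right edge are at the ab1 score of 3100.

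Genes that work with the members or belong to their families were listed, and the shared regions with each as closest coding TSS were counted, beside the 43.8% of coding genes with at least 1. Of 12 AUTS2 paralogs and PRC1 partners, 6 had a region, with a median of 0.5. Rybp, a PRC1 subunit that bridges RING1 proteins and DNA-binding factors, had 24, of which 10 had all 3 antibodies, and none of them lay inside its span. The AUTS2 paralog Fbrsl1 had 4, and the paralog Fbrs, the PRC1 ubiquitin ligase Rnf2, Pcgf5 and Yaf2 had 1 each. Of 5 cytoskeletal partners 3 had a region. Prex1 and Dock1, exchange factors that activate Rac, had 29 and 9, and Elmo2, a partner of DOCK proteins, had 2, while the GTPase genes Rac1 and Cdc42 had 0. Of 18 other GalNAc-transferases 14 had a region, with a median of 2, led by Galnt2 with 17, Galnt18 with 11 and Galnt3 with 9. The same rule gave Galnt17 and Auts2 56 and 52 regions, and 37 of those given to Galnt17 lay inside Auts2. Galnt17 and Auts2 were chosen with their peak positions known, so a lower count in the lists is no result about them. The counts were not adjusted for gene length or for the distance to neighbouring genes.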

How the data were processed

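Peak lists of the 3 NEUROD2 libraries were analysed. The 2 GFP libraries entered only as controls of peak calling. According to the study's methods and the submitters' processing notes, the authors aligned reads to mm10 with Bowtie and called peaks with MACS for each antibody, with the GFP library matched by host as control. The score the authors deposited for each peak is 10 times the −log10 p-value, neither scaled between libraries nor corrected for depth, so peak counts and scores of the antibodies are not on a common scale. The lowest scores were about 50, and the deposited peak lists give no read depth. The read totals given by the study were not used here.

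Peaks overlapping by at least 1 bp were merged, and a region needed peaks of 2 or more antibodies to be kept. Midpoints were placed on GENCODE release M21 (longest-span transcript, GRCm38) and inside a gene span first, otherwise at the closest protein-coding TSS. Sequence was read from the RefSeq GRCm38.p6 FASTA. Of the members, 2 were matched in the RefSeq promoter table. Regions of 1 locus come from the same libraries and are not replicates, so no test was run. Named were the members, other annotated genes with a TSS within 1 kb of a shared region, the flanking coding genes, the 3 genes of each list with most regions (ties and further members named after their values were seen), and the strongest, widest and TSS-closest regions. A list of calcium-binding proteins is not reported here. The member genes and lists were chosen with earlier results of these data known. Merging, TSS and motif searches were tested on simulated data. Python 3.11.15, numpy 2.4.6, scipy 1.17.1, pysam 0.24.0 and matplotlib 3.10.9 were used. Alternatives are given in the closing section.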

Additional observations from a re-analysis of the deposited data

How the results depend on the processing

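Each of 14 results was recomputed under the alternatives that bear on it, giving 103 values, of which 57 stayed within the limit set for that result (1.5 times for a count or density, otherwise the SD over antibodies or antibody pairs, or the interval of a share). Requiring peaks of all 3 antibodies left 36 shared regions, 30 at Auts2, 5 at Galnt17 and 1 at Caln1, or 2.35, 1.15 and 0.212 per 100 kb of span, of which 100% of those in a span were intronic, at a median of 386 kb from a coding TSS. Any antibody gave Auts2 135 regions. A minimum score of 100 left Caln1 3 regions (0.637 per 100 kb), made 98.6% intronic and 22.4% held by all 3 antibodies, and lowered rho of ab1 and ab3 to 0.75. By the closest protein-coding TSS alone Auts2 had 52 regions, Galnt17 56 and Caln1 1. With exons of all transcripts 95.7% were intronic. The median distance was 93.8 kb to the TSS of any coding transcript and 30.2 kb to that of any gene type. A central window of 100 bp held the extended E-box in 38.6% of regions, and CANNTG was in 86.8% of the 200 bp windows. With missing scores set to 0, rho was 0.62 for ab1 and ab3 and 0.70 for ab2 and ab3. Over regions with all 3 antibodies it was 0.94 for ab1 and ab2, and Pearson's r of log10 scores was 0.92 for ab1 and ab2 and 0.79 for ab1 and ab3.

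Beyond the construction of each setting the causes of these shifts were not tested. Leaving out 1 antibody at a time gave 36 to 114 shared regions, 30 to 89 at Auts2, 5 to 19 at Galnt17 and 1 to 6 at Caln1 (densities of 2.35 to 6.51, 1.15 to 3.90 and 0.212 to 1.06), 97.9% to 100% intronic, and a median distance of 349 to 386 kb. The low counts and densities, and the high ends of the intronic share and the distance, came without ab1 or without ab2, since every pair then includes ab3, the library with the fewest peaks. The order of the 3 genes by count was the same in all of these settings except by closest TSS alone. No paired analysis was possible because the 2 GFP libraries have no peak list and no comparison between groups was made. Peak lists show no depth, so a missing peak of ab3 does not show absence of binding.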
